A study of Mus musculus with 12 samples.

Results

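CD11c+ spleen cells of ApoE-/- mice were compared with those of Bl6 mice, both fed a standard diet called normal chow. The difference was taken between 6 of the 12 arrays of the study: samples 1, 2 and 3 were ApoE-/- on chow, and samples 7, 8 and 9 were Bl6 on chow. The other 6 arrays held ApoE-/- samples (4, 5 and 6) and Bl6 samples (10, 11 and 12) on a high-cholesterol diet. They entered the same fit and helped set the spread behind every p-value. Cells were pulled from the spleen with magnetic beads against CD11c, so each sample is a bead-enriched mixture, and the labels give no purity, age, sex or source of the knockout line. The labels write the knockout as ApoE-/- or ApE-/- and the controls as Bl6, B6 or WT; they do not say that the controls were littermates. Every probe with a detection p under 0.05 on 3 or more of the 6 chow arrays was tested, which left 23031 of 46237 probes, naming 12219 genes. Whether the 3 samples of a group came from separate mice is not in the labels. The p-values therefore measure only the spread within the 4 groups of these 12 arrays, and that spread may be technical.

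Apolipoprotein E is a protein of lipoprotein particles that carries cholesterol between cells and binds the receptors which clear these particles from blood. The liver and macrophages are its main sources, and mice without it have high blood cholesterol and develop atherosclerosis. CD11c is an integrin of dendritic cells, which present antigens to T cells, and some macrophages, natural killer cells and other leukocytes carry it too.

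Levels are log2 normalised intensities, a difference is ApoE-/- minus Bl6 in log2 units with its standard error from the linear model, and a probe is said to rise or fall only where its adjusted p was under 0.05. Between 22077 and 23245 probes were detected per array. Across tested probes, the difference between 2 arrays of a group had an SD of 0.343 to 0.428, and that between a chow array of each genotype 0.41 to 0.466. The label CD11c+ could be set against its own gene: the Itgax probe was detected on all 6 arrays, at 8.42, 8.60 and 8.55 in ApoE-/- and 8.32, 8.36 and 8.03 in Bl6 samples (0.29 ± 0.16, adjusted p = 0.524). Its groups did not overlap, and the difference did not pass. Genes of B cells, T cells, natural killer cells, neutrophils and red pulp macrophages were detected as well. The authors' other table, of log2 values, holds the values of samples 1, 2 and 3 under the names of samples 4, 5 and 6 and the reverse; the files do not settle which naming holds. The names of the intensity table were used, and each gene below that rose or fell but did not pass with the ApoE-/- diets exchanged is named with its value under that exchange.

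Genotype changed 90 probes on chow, 41 of them higher and 49 lower in ApoE-/- cells. That is 0.391% of the tested probes, 0.178% higher and 0.213% lower. The falls were led by Apoe itself, by the X-linked transcript Xist and by neighbours of Apoe on chromosome 7, and the rises by the Y-linked genes Eif2s3y and Kdm5d, the granzyme gene Gzmk and genes of neutrophil granules. By the brightest probe of each gene, 25 genes rose and 29 fell, or 0.442% of 12219 genes (0.205% higher and 0.237% lower). At an unadjusted p under 0.05 there were 2698 probes, and the median difference of all genes was 0.01. The number of calls depended on single arrays: it was 25 without sample 1, 23 without sample 2, 55 without sample 3, 45 without sample 8 and 24 without sample 9, but 133 without sample 7. It was 31 when only the 6 chow arrays set the spread. With the ApoE-/- diets exchanged, 55 of the 90 probes passed in the same direction and 89 kept their sign.

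**Figure D1:**
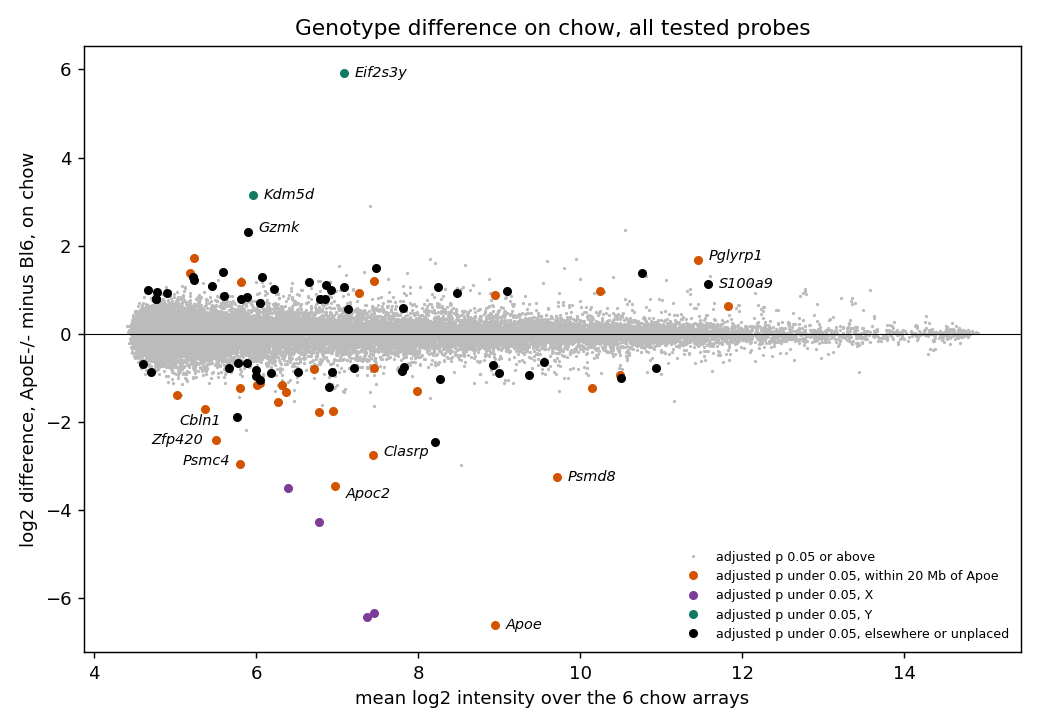
Each point is 1 of 23031 tested probes, with the mean log2 intensity over the 6 chow arrays on the x axis and the log2 difference, ApoE-/- minus Bl6, on the y axis; coloured and black points are the 90 probes with an adjusted p under 0.05, by place in the genome. Apoe lies lowest at -6.61 and Eif2s3y highest at 5.91, and most other called probes lie close to 0 by comparison.

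Apoe fell more than any other tested probe. It read 5.52, 5.93 and 5.50 in the ApoE-/- samples and 12.18, 12.33 and 12.26 in the Bl6 samples. The groups lay far apart, at a difference of -6.61 ± 0.13 (adjusted p = 4.26e-10). The probe stayed above background on all 3 ApoE-/- arrays, and its position relative to the disrupted part was not checked here.

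Both measured apolipoprotein genes next to Apoe changed, in opposite directions. Apoc2, whose product activates lipoprotein lipase, read 5.04, 5.43 and 5.26 in ApoE-/- and 8.62, 8.46 and 9.04 in Bl6 samples (-3.46 ± 0.22, adjusted p = 1.54e-05). The groups did not overlap, but a dimmer Apoc2 probe gave 0.72 ± 0.30 and did not pass (adjusted p = 0.386). Apoc1, which encodes an inhibitor of lipoprotein uptake and of the cholesteryl ester transfer protein, read 10.82, 10.81 and 10.59 against 9.70, 9.95 and 9.64 in Bl6 samples (0.98 ± 0.15, adjusted p = 0.0216). Its other probe rose by 0.89 ± 0.15, so both Apoc1 probes passed upward, the dimmer one in 3 of the 12 fits that leave out 1 array. The call of the brighter probe did not pass without sample 1, 2 or 9 (0.92 to 0.94, adjusted p 0.0964 to 0.12). On the high-cholesterol diet both Apoc1 probes read -0.60, lower in ApoE-/- cells, with no overlap between groups; neither passed there, and the difference between the diets gave an adjusted p of 0.0775 for each.

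**Figure D2:**
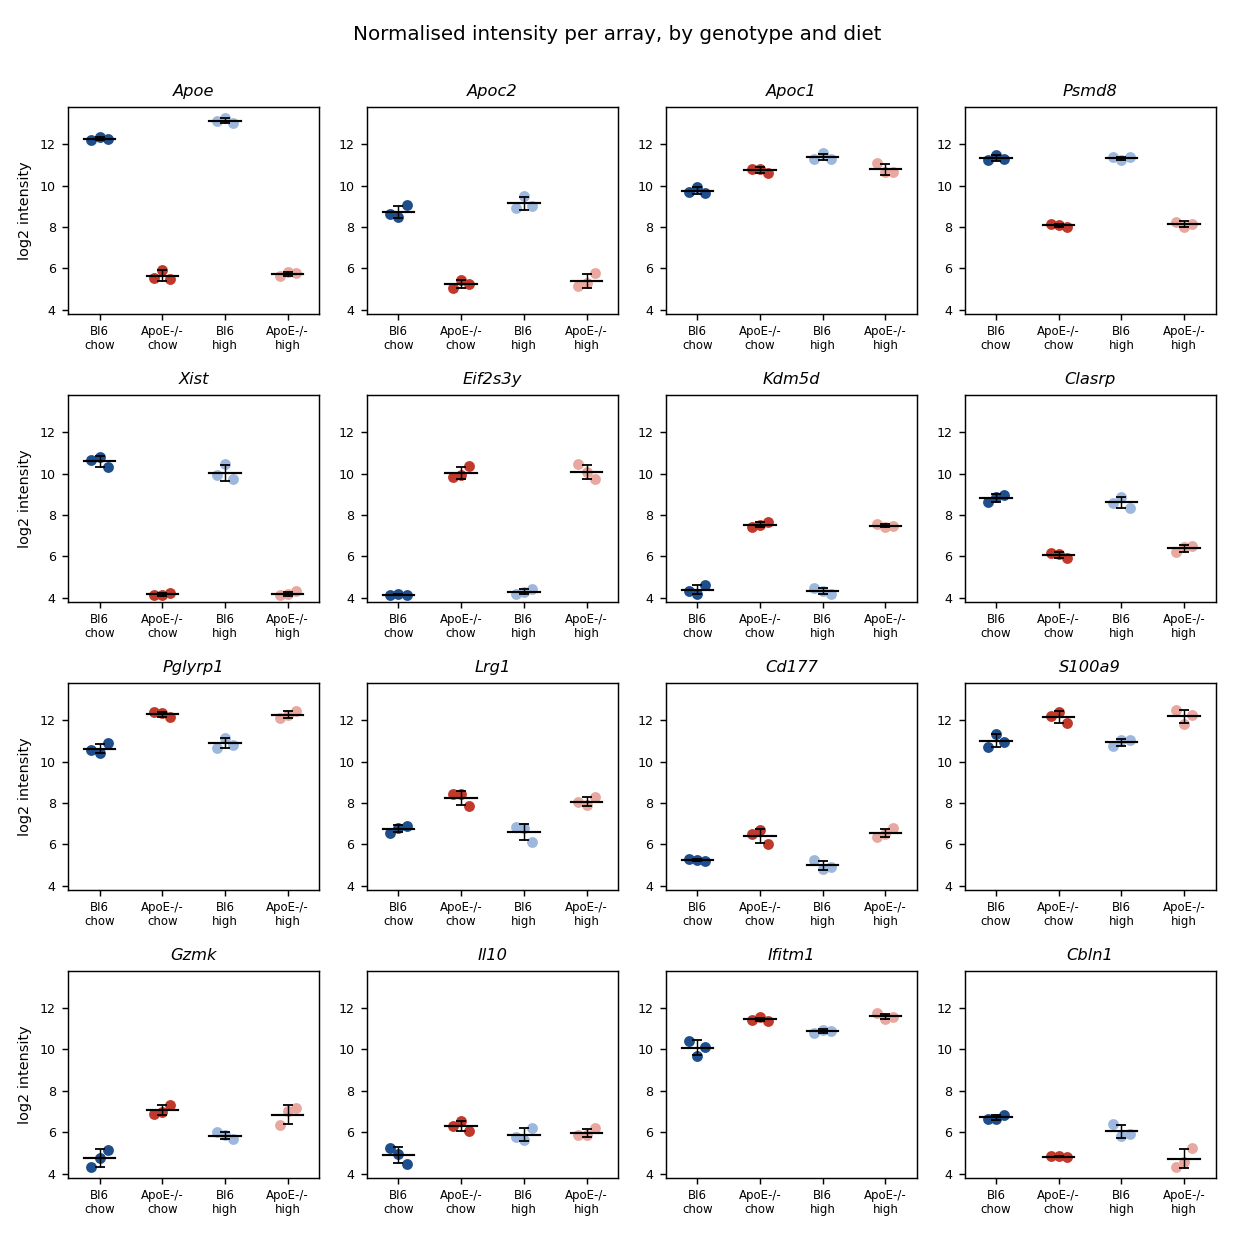
Log2 normalised intensity of 16 genes on each array, for Bl6 (blue) and ApoE-/- samples (red) on chow (dark) and the high-cholesterol diet (pale); horizontal lines are group means and bars the SD of 3 samples. Apoe reads between 5.50 and 5.93 on the ApoE-/- chow arrays and from 12.18 to 12.33 on the Bl6 chow arrays, and Pglyrp1, Lrg1, Cd177, S100a9 and Gzmk lie higher on the ApoE-/- chow arrays without overlap.

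Xist and the Y-linked genes Eif2s3y and Kdm5d parted the genotypes without overlap. Xist, the non-coding RNA of the inactive X chromosome, read 4.12, 4.11 and 4.23 in ApoE-/- samples, where it was not detected, and 10.65, 10.81 and 10.29 in Bl6 samples. With undetected values raised to the dimmest detected probe of each array, it was at least 70.4-fold lower in ApoE-/- cells, and all 4 Xist probes fell. Eif2s3y, a Y-linked translation factor gene, read 9.84, 9.91 and 10.37 in ApoE-/- samples and 4.11, 4.17 and 4.12 in Bl6 samples, where it was not detected, and was at least 48.0-fold higher (adjusted p = 1.16e-08). Kdm5d, a Y-linked histone demethylase gene, was undetected in Bl6 samples too and at least 8.08-fold higher in ApoE-/- cells. Eif2s3y and Kdm5d missed the detection filter, and so were not tested, without sample 1, 2 or 3. The same held for the Xist probe with these values without sample 7, 8 or 9. Uty read 5.89, 6.01 and 6.24 against 5.16, 5.89 and 4.91, which overlapped (0.72 ± 0.23, adjusted p = 0.229). Of the 4 X-linked partners of Y genes (Kdm6a, Kdm5c, Eif2s3x, Ddx3x), none passed; Eif2s3x read 9.84, 9.94 and 9.92 against 10.54, 10.49 and 10.32 (-0.55 ± 0.10, adjusted p = 0.0541). All 3 ApoE-/- chow samples carried the Y-linked signal and all 3 Bl6 chow samples the Xist signal, so genotype and these sex-linked states cannot be told apart in any difference below.

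Calls were dense around Apoe. Within 20 Mb of it on chromosome 7, by the gene order of the GRCm38.p6 annotation, 18 of 341 tested genes were called (5.28%, 7 higher and 11 lower), against 4 of 625 (0.64%) on the rest of the chromosome and 28 of 10821 (0.259%) on the other autosomes. The 30 called probes there had a median size of 1.32. Of the 18 called genes, 10 lay within 50 tested genes of Apoe and the farthest was 143 tested genes away, with uncalled genes between them. Of the 5 tested genes on either side of the cluster only Clasrp passed. Relb and Clptm1 (both 0.04), Bcam (-0.22), Tomm40 (-0.25), Nectin2 (0.28), Gemin7 (-0.23), Cblc (0.43), Zfp296 (0.38) and Bcl3 (0.44) did not.

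**Figure D3:**
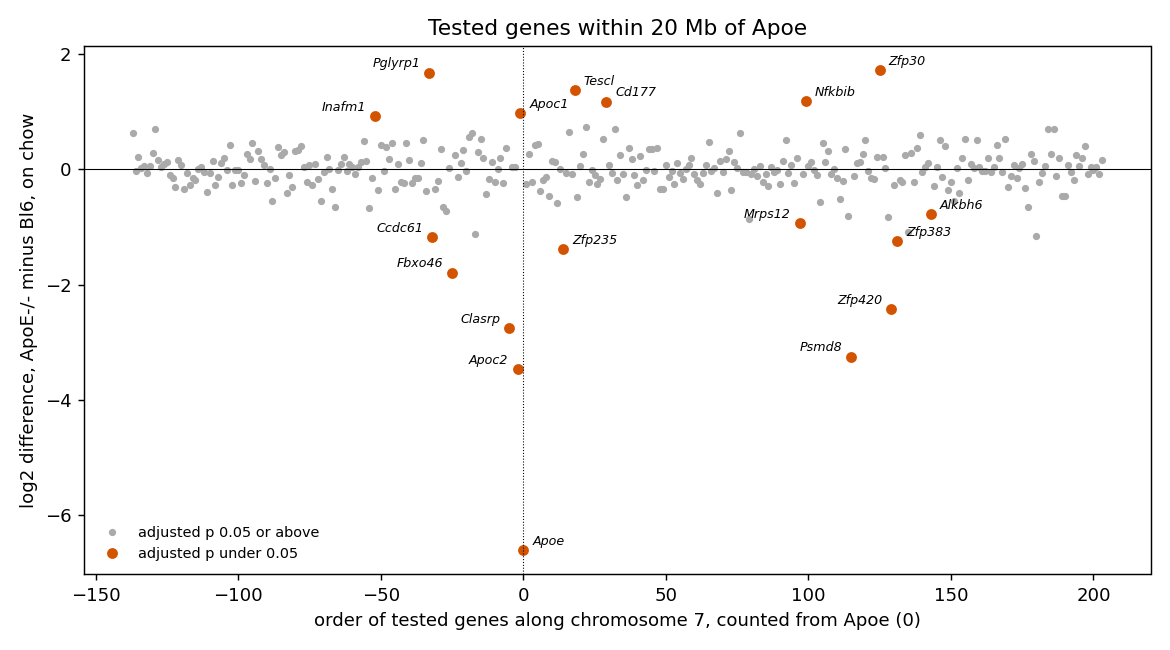
Log2 difference on chow (y axis) of the 341 tested genes within 20 Mb of Apoe, by the brightest probe, along their order on chromosome 7 counted from Apoe (x axis); filled orange points passed. The 18 called genes are spread from Inafm1, 52 places before Apoe, to Alkbh6, 143 places after it, among grey genes near 0.

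Beyond Apoe and Apoc2, the deepest falls there by the brightest probe were in Psmd8, Clasrp and Zfp420. Psmd8, a subunit of the regulatory cap of the proteasome, read 8.15, 8.10 and 8.01 in ApoE-/- and 11.25, 11.48 and 11.27 in Bl6 samples (-3.25 ± 0.11, adjusted p = 3.40e-08). Clasrp, which acts in splicing, read 6.17, 6.12 and 5.90 against 8.63, 8.85 and 8.99 (-2.76 ± 0.15). Zfp420, a zinc-finger gene, was undetected on all 3 ApoE-/- arrays, read 6.35, 6.94 and 6.86 in Bl6 samples and was at least 4.81-fold lower. None of these groups overlapped. Further falls there were Cd3eap, a subunit of RNA polymerase I (-1.76 ± 0.15), Fbxo46, an F-box gene (-1.79 ± 0.22), Zfp235 (undetected in ApoE-/- samples and at least 2.38-fold lower) and Mrps12, of the mitochondrial ribosome, through both of its probes (-1.23 ± 0.12 and -0.93 ± 0.11). Rises near Apoe included Zfp30, a zinc-finger gene that read 6.41, 5.96 and 5.92 in ApoE-/- samples, was undetected in Bl6 samples and was at least 3.05-fold higher. Tescl rose from 4.77, 4.47 and 4.25 to 5.79, 5.98 and 5.87 (1.38 ± 0.16). Nfkbib, which encodes an inhibitor of the transcription factor NF-kappaB, rose from 6.55, 7.11 and 6.91 to 7.96, 8.13 and 8.05 (1.19 ± 0.17, adjusted p = 0.0139). Nfkbib did not pass without sample 1, 2 or 9 (1.15 to 1.23, adjusted p 0.0559 to 0.081), and Zfp235 did not without sample 2 (-1.30, adjusted p = 0.0527). Zfp235 and Zfp420 missed the detection filter, and so were not tested, without sample 7, 8 or 9. The same held for Zfp30 without sample 1, 2 or 3.

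Probes of one gene often disagreed. Of 15 genes near Apoe with a call and several tested probes, all probes of 3 genes were called, and those of 7 genes shared a sign; of 18 such genes elsewhere, the counts were 1 and 11. Psmc4, a proteasome ATPase, fell by its dimmer probe (4.60, 4.23 and 4.14 against 7.35, 7.35 and 7.17), while its brighter probe differed by 0.00 ± 0.10. The other Psmd8 probe gave 0.30 ± 0.17, and 26 of the 27 tested genes of the constitutive proteasome did not pass by their brightest probe (list median 0.05). Pvr, an adhesion receptor of the immunoglobulin family, fell by 1 of 4 probes (-1.71 ± 0.21), and the others read 0.53, -0.19 and -0.00. Ppp1r14a, an inhibitor of myosin phosphatase, gave -1.31 ± 0.21 and 0.51 ± 0.22, Cd3eap -1.76 and 0.52, and Kptn -1.11 and 0.50; in each the first probe passed and the second did not. The Kptn call did not pass without sample 1, 2 or 9 (adjusted p up to 0.0555). Lgals4, a galectin, gave -1.54 ± 0.19 and, by a probe that did not pass, -0.56 ± 0.15. Ppp1r14a did not pass without sample 1, 2, 3, 7 or 9 (-1.40 to -1.18, adjusted p 0.0501 to 0.132). Probe sequences were not used here, so which transcript or base each pair of probes reads was not tested.

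Genes of neutrophil granules were higher in the ApoE-/- samples. Of 11 tested genes of secondary and tertiary granules, the late-formed granules that hold antimicrobial and matrix-degrading proteins, 3 rose and none fell, and all 11 differences were above 0 with a median of 1.34. In 10 of the 11 the groups did not overlap, against 9.32% of all tested genes apart in that direction. In bulk samples, more cells of a type and more RNA per cell cannot be told apart. Pglyrp1, a peptidoglycan-recognition protein of these granules, rose from 10.57, 10.42 and 10.87 to 12.40, 12.33 and 12.16 (1.68 ± 0.16, adjusted p = 6.59e-04). Lrg1, a leucine-rich glycoprotein, rose from 6.55, 6.79 and 6.89 to 8.42, 8.41 and 7.86 (1.49 ± 0.21, adjusted p = 0.0157). Cd177, a surface glycoprotein of neutrophils, rose from 5.26, 5.23 and 5.17 to 6.49, 6.69 and 6.00 (1.17 ± 0.18, adjusted p = 0.0216). In Lrg1 and Cd177 the lowest ApoE-/- array was sample 3, and without sample 1, 2, 8 or 9 neither passed (adjusted p 0.054 to 0.0954 for Lrg1 and 0.0831 to 0.116 for Cd177). Camp, the cathelicidin antimicrobial peptide, read 9.20, 9.48 and 8.29 against 7.21, 7.54 and 7.14 (1.70 ± 0.32, adjusted p = 0.0541), and Hp, haptoglobin, 9.23, 9.33 and 8.71 against 7.55, 8.16 and 8.38 (1.06 ± 0.23, adjusted p = 0.0908). Camp passed without sample 3 (2.05, adjusted p = 0.019) or sample 5 (1.70, adjusted p = 0.0348) and with the ApoE-/- diets exchanged (1.77, adjusted p = 0.0472). The mean over the 11 genes was 8.86, 8.88 and 8.25 on the ApoE-/- arrays and 7.36, 7.63 and 7.55 on the Bl6 arrays; without sample 3 the list's median was 1.67, and without background correction 0.85.

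Pglyrp1 and Cd177 also lie within 20 Mb of Apoe, and Lrg1 on chromosome 17. A dimmer probe that the array lists under Pglyrp, an older symbol of Pglyrp1, went the other way, at 5.84, 5.94 and 5.33 against 6.93, 7.09 and 7.08 (-1.33 ± 0.20, adjusted p = 0.0188), and did not pass without sample 1, 8 or 9 (adjusted p up to 0.0857). The rise of Pglyrp1 thus rests on the brighter of its 2 probes.

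Of 13 tested genes of mature neutrophils, 2 rose and none fell, with a list median of 0.54; 0.205% of all genes rose. S100a9, a subunit of the calcium-binding antimicrobial complex calprotectin, rose from 10.72, 11.34 and 10.96 to 12.18, 12.40 and 11.86 (1.14 ± 0.21, adjusted p = 0.0489). Its partner S100a8 read 13.33, 13.42 and 13.03 against 11.98, 12.66 and 12.27 without overlap (0.96 ± 0.19, adjusted p = 0.0656). S100a8 passed without sample 8 (1.14, adjusted p = 0.0457). Il1r2, a decoy receptor for interleukin 1, rose from 6.30, 6.72 and 6.37 to 7.25, 7.31 and 7.18 (0.78 ± 0.12, adjusted p = 0.0241). S100a9 passed in only 2 of the 12 fits that leave out 1 array, those without sample 4 or 5, with adjusted p up to 0.202 in the others, and Il1r2 did not pass without sample 1, 2, 3 or 9 (0.74 to 0.82, adjusted p 0.0589 to 0.129). Of the 6 tested genes of primary granules, which form in neutrophil precursors, none passed (median 0.47, or 0.99 without sample 3 and 0.20 without background correction). Ctsg and Ms4a3 of that list were not tested. Elane, Cebpe and Fcnb were detected on all 3 ApoE-/- arrays and on no Bl6 array, as was Stfa1 of the mature list. These genes met the detection filter through the ApoE-/- arrays alone, which can raise the list medians. They are thus no separate sign of a rise. On the high-cholesterol diet, 7 of the 11 secondary granule genes and 2 of the 13 mature neutrophil genes rose with the knockout. There 0.96% of all tested probes were called in either direction. The arrays of that diet are not those of chow, but both diets share the estimate of the spread.

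The upstream sequences of 2 of the 5 neutrophil genes that rose are shown because they hold one of the motifs looked for. C/EBP and PU.1 are transcription factors of granulocyte genes. Each line gives the 250 bases before the annotated start, 5′ to 3′, from RefSeq on build GRCm38.p6: Pglyrp1 at chr7:18884440-18884689 on the plus strand and S100a9 at chr3:90695722-90695971 on the minus strand. Capitals mark, on either strand, GAGGAAG (a PU.1 core) in Pglyrp1 and TTGCNNAA (a C/EBP motif) in S100a9.
Pglyrp1: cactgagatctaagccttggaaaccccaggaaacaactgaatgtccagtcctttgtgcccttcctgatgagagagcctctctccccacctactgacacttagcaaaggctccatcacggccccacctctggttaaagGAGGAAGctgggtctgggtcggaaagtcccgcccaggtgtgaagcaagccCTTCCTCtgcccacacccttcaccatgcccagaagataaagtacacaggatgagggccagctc
S100a9: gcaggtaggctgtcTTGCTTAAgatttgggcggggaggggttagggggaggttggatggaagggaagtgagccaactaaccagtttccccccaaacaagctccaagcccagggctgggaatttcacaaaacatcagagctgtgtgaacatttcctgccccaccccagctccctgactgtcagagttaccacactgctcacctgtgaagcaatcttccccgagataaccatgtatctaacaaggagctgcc
Among windows of this length at 27025 genes, 10.4% hold GAGGAAG and 9.55% hold TTGCNNAA on either strand. The windows of Cd177, Il1r2 and Lrg1 hold neither. A match describes these letters only and shows no binding.

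Gzmk, a granzyme of T cells and natural killer cells, showed the largest rise outside the Y chromosome. It read 6.86, 6.97 and 7.33 in ApoE-/- samples and 4.32, 4.75 and 5.16 in Bl6 samples, where 2 of 3 arrays detected it (2.31 ± 0.25, adjusted p = 0.00181). The groups did not overlap, and Gzmk passed with the ApoE-/- diets exchanged (2.11). It was the single call among 15 tested genes of natural killer and cytotoxic cells (median 0.47, or 0.26 with the diets exchanged; groups apart upward in 7, against 9.32% of all genes, and downward in 1). No T cell gene of 12 passed by its brightest probe, but all 12 differences lay above 0 (median 0.54) and 8 had groups apart upward, against the same 9.32%. Thy1, a surface glycoprotein of T cells, read 11.28, 11.40 and 11.10 against 10.28, 10.37 and 10.78 (0.78 ± 0.16, adjusted p = 0.0719). Cd6, a T cell receptor for activated-leukocyte adhesion molecule, rose by 1 of 4 probes (0.92 ± 0.16, adjusted p = 0.0406), while its brightest gave 0.74 ± 0.16 (adjusted p = 0.0908); the call was lost with the diets exchanged (0.72, adjusted p = 0.128). Gzmm read 9.70, 9.60 and 8.89 against 8.45, 8.35 and 8.60, and Il2rb 7.61, 7.97 and 7.57 against 7.12, 7.00 and 7.32; neither passed. Other genes known from lymphocytes rose as well: Tox, a nuclear regulator of T cell development (1.06 ± 0.15), Cd226, an activating receptor (1.02 ± 0.19, by the brightest of 3 probes), and Ccl4, a chemokine, by the dimmer of 2 probes (0.97 ± 0.15). None of them passed with the diets exchanged, where Tox gave 0.83 (adjusted p = 0.0512), Cd226 0.77 (adjusted p = 0.148) and Ccl4 0.81 (adjusted p = 0.0519). Of the 12 fits that leave out 1 array, Tox passed in 9 (not without sample 1, 2 or 9), Ccl4 in 8 (not without sample 1, 2, 8 or 9), Cd6 in 5 and Cd226 in 1, that without sample 9. The mean over the T cell genes was 9.35, 9.35 and 9.14 on the ApoE-/- arrays and 8.80, 8.66 and 8.93 on the Bl6 arrays; the part of cell mixture in these differences was not tested.

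**Figure D4:**
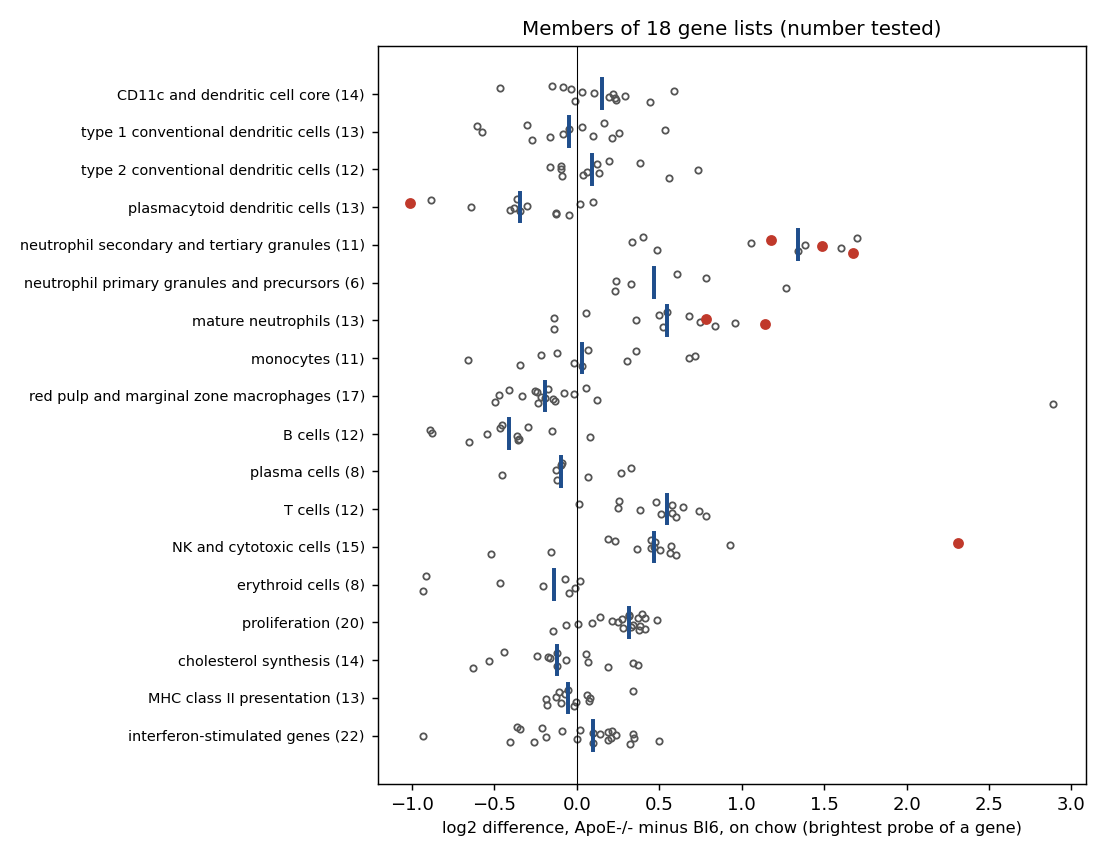
Log2 difference on chow (x axis) of the tested members of 18 gene lists (y axis, with the number tested), by the brightest probe of each gene; red points passed, open points did not, and blue bars are list medians. The 11 genes of secondary and tertiary granules all lie above 0 with a median of 1.34, 11 of 12 B cell and 11 of 13 plasmacytoid dendritic cell genes lie below 0, and the other dendritic cell lists have medians between -0.05 and 0.15.

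Other rises spread over several chromosomes. Il10, an anti-inflammatory cytokine, rose from 5.25, 4.96 and 4.46 to 6.28, 6.56 and 6.05 (1.40 ± 0.22, adjusted p = 0.0239), and was the only call among 14 cytokine genes. It did not pass without sample 1, 2, 8 or 9 (1.19 to 1.44, adjusted p 0.0831 to 0.129) or with the ApoE-/- diets exchanged (1.09, adjusted p = 0.088). Ifitm1, an interferon-induced membrane protein, rose by 2 of its 5 probes, the larger from 10.43, 9.69 and 10.12 to 11.41, 11.55 and 11.40 (1.37 ± 0.17, adjusted p = 0.00423); the brightest probe gave 0.22 ± 0.12. The larger one passed in all 12 fits that leave out 1 array and the other in 7 (not without sample 1, 2, 3, 8 or 9). With only the 6 chow arrays in the fit the larger one did not pass (adjusted p = 0.0768). Sostdc1, an antagonist of bone morphogenetic proteins, rose from 4.50, 4.74 and 4.52 to 6.11, 5.91 and 5.58 (1.28 ± 0.20, adjusted p = 0.0208), and was not called without sample 1, 2, 8 or 9 (adjusted p 0.0529 to 0.116). Cyp7b1, an oxysterol hydroxylase, rose from 6.26, 6.07 and 5.84 to 7.41, 7.23 and 7.08 (1.18 ± 0.21, adjusted p = 0.045). Sdcbp2, a PDZ-domain protein, rose from 5.76, 5.21 and 5.30 to 6.99, 6.61 and 6.54 (1.29 ± 0.23, adjusted p = 0.0449). Cyp7b1 and Sdcbp2 each lost the call in 9 of the 12 fits without 1 array (adjusted p 0.0545 to 0.176 and 0.0535 to 0.176) and with the diets exchanged (0.85, adjusted p = 0.16, and 1.22, adjusted p = 0.0628). Sp4, a transcription factor gene, rose by its dimmer probe, undetected in Bl6 samples and at least 2.34-fold higher. That probe was not called without sample 8 or 9 (adjusted p 0.0558 to 0.0956). It missed the detection filter, and so was not tested, without sample 1, 2 or 3. The brighter Sp4 probe gave 0.22 ± 0.27. Gss, glutathione synthetase, rose by 2 of 4 probes (0.69 ± 0.12 for the brightest), and lost the call in 11 of the 12 fits without 1 array (adjusted p 0.054 to 0.184); with the diets exchanged the brightest probe gave 0.03 and the other called one 0.67, and neither passed.

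Smaller rises, each lost with the diets exchanged, included Pls1, Stx3, Hnrnpll, Aak1 and Adgrg3. Pls1, an actin-bundling plastin, rose from 5.05, 5.17 and 5.31 to 6.21, 6.16 and 5.76 (0.87 ± 0.14), and Stx3, a syntaxin of membrane fusion, from 5.55, 5.24 and 5.48 to 6.28, 6.11 and 6.22 (0.78 ± 0.13). Hnrnpll, a splicing regulator known from T cells, rose from 7.63, 7.50 and 7.42 to 8.12, 8.05 and 8.13 (0.58 ± 0.10). None of these groups overlapped, but the brightest Stx3 and Hnrnpll probes did not pass (0.32 ± 0.13 and 0.31 ± 0.10). Aak1, a kinase of clathrin-coated vesicles (0.92 ± 0.14), and Adgrg3, an adhesion G protein-coupled receptor of granulocytes (0.79 ± 0.14), were detected on all 3 ApoE-/- arrays and on no Bl6 array, while the brightest Aak1 probe gave -0.06 ± 0.23. With the diets exchanged, Aak1 gave -0.01 (adjusted p = 0.983), Adgrg3 0.29 (adjusted p = 0.502), Pls1 0.70 (adjusted p = 0.0721), Stx3 0.44 (adjusted p = 0.241) and Hnrnpll 0.39 (adjusted p = 0.159). Of the 12 fits that leave out 1 array, Aak1 passed in 8, Pls1 in 7, Hnrnpll in 5, Stx3 in 4 and Adgrg3 in 2. None of these genes passed without sample 1, 2 or 9. Aak1 and Adgrg3 missed the detection filter, and so were not tested, without sample 1, 2 or 3.

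Apart from Xist and the genes near Apoe, Pisd-ps3, whose place is unknown, and Cbln1 fell most. Cbln1 is known as a synapse-organising protein of the cerebellum. It read 4.83, 4.83 and 4.81 in ApoE-/- and 6.65, 6.64 and 6.84 in Bl6 samples (-1.89 ± 0.22, adjusted p = 0.00283), passed under all 23 alternatives and fell on the high-cholesterol diet as well (-1.32). Pisd-ps3, a pseudogene copy of the phosphatidylserine decarboxylase gene, read 7.23, 6.98 and 6.74 against 9.26, 9.35 and 9.68 (-2.45 ± 0.39, adjusted p = 0.0239), and the related copy Pisd-ps1 fell by 0.78 ± 0.12 (not without sample 1, 2 or 9); probes for such copies may read more than one of them. Pisd-ps3 did not pass without sample 1, 2, 3, 8 or 9 (adjusted p 0.0841 to 0.119) or with the diets exchanged (-1.95, adjusted p = 0.0771). Kallikrein genes on chromosome 7, beyond the 20 Mb around Apoe, fell: Klk1 (10.06, 9.99 and 9.93 against 10.84, 10.86 and 11.33; -1.01 ± 0.17), Klk1b21 (-1.02 ± 0.19) and Klk1b5 (-0.93 ± 0.17). Kallikrein paralogs are close in sequence, so their probes may not be independent. Klk1 lost the call in 8 of the 12 fits without 1 array (adjusted p 0.0545 to 0.15), Klk1b21 in 10 and Klk1b5 in 11. With the diets exchanged Klk1b21 gave -0.94 (adjusted p = 0.0761) and Klk1b5 -0.76 (adjusted p = 0.125), and neither passed. Tns3, a focal adhesion protein, fell by 2 of 3 probes (-0.85 ± 0.12 and -0.76 ± 0.12), and its brightest probe gave -0.12 ± 0.12. Cdh1, the adhesion protein E-cadherin (-0.77 ± 0.14), Mgll, which releases fatty acids from monoglycerides (-0.86 ± 0.15), Tec, a tyrosine kinase (-0.70 ± 0.12), Arrdc3, an arrestin-like gene (-0.65 ± 0.11), Aloxe3, a lipoxygenase (-0.90 ± 0.13), and Lrig3 (-0.82 ± 0.14) fell with groups apart. Lrig3 did not pass with the diets exchanged (-0.68, adjusted p = 0.0811). Of the 12 fits that leave out 1 array, Aloxe3 passed in 7, Lrig3 in 5, Arrdc3 in 4, Mgll and Tec in 2 and Cdh1 in 1; the Tns3 probes passed in 8 and 6. None of these probes passed without sample 1, 2 or 9.

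No gene of the dendritic cell lists other than the plasmacytoid one passed. This held for the 14 tested genes of the CD11c and dendritic cell core (median 0.15), 13 of type 1 (-0.05) and 12 of type 2 conventional dendritic cells (0.09), for 13 genes of antigen presentation by MHC class II (-0.05) and for 14 of maturation (-0.04). Cd83, a maturation marker, read 11.42, 11.59 and 11.68 against 12.12, 12.12 and 11.84 (-0.46 ± 0.12, adjusted p = 0.144). Itgam, which with its partner forms the integrin CD11b, read 6.04, 5.69 and 5.95 against 5.02, 4.97 and 5.47 (0.74 ± 0.22, adjusted p = 0.206), and Itgae, the CD103 integrin of type 1 cells, 8.89, 8.99 and 9.13 against 8.77, 8.17 and 8.46 (0.54 ± 0.17, adjusted p = 0.225). Both had groups apart. Tbx21, a transcription factor of some type 2 cells that also marks cytotoxic lymphocytes, read 8.60, 8.58 and 8.62 against 8.15, 7.97 and 8.01 (adjusted p = 0.144).

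Of 13 plasmacytoid dendritic cell genes, those of the interferon-producing subset, Klk1 fell and the others did not pass (median -0.34, groups apart downward in 7 against 8.86% of all genes). The median was -0.16 with the diets exchanged, -0.07 in the deposited log2 table under its own names and -0.20 without sample 7. Cox6a2, a respiratory chain subunit that marks these cells, read 9.75, 9.87 and 9.83 against 10.70, 10.40 and 11.00 (-0.88 ± 0.16, adjusted p = 0.0513), and passed without sample 4 (-0.88, adjusted p = 0.0391) or 8 (-1.03, adjusted p = 0.0379). On the high-cholesterol diet the median of the same list was 0.11. B cell genes lay lower in 11 of 12 cases (median -0.41) and none passed. In 6 of them the groups were apart downward, against 8.86% of all genes, and in none upward. Fcer2a, the low-affinity receptor for immunoglobulin E, read 9.41, 9.35 and 8.97 against 9.62, 10.51 and 10.23, and the list's mean was 10.31, 10.33 and 10.16 against 10.32, 11.03 and 10.79. Samples 8 and 9 were thus high in B cell genes, and sample 7 was level with the ApoE-/- arrays.

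None of 17 genes of red pulp and marginal zone macrophages passed (median -0.19, 14 below 0). In 8 of them the groups were apart downward, against 8.86% of all genes, and in 1 upward, against 9.32%. On the high-cholesterol diet the list's median was -0.46, with 14 below 0. C1qa, of the complement initiator C1q, read 11.46, 11.48 and 11.57 against 11.79, 12.10 and 11.86 (-0.41 ± 0.11, adjusted p = 0.176). Vsig4, a complement receptor on the X chromosome, read 9.71, 9.72 and 7.13 against 6.34, 5.98 and 5.57 (2.89 ± 0.71, adjusted p = 0.136), with sample 3 far below samples 1 and 2; it passed without sample 3 (3.75, adjusted p = 0.0319).

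In the lipid lists, calls were limited to the Apoe cluster. Apoe, Apoc1 and Apoc2 made up the 3 calls among 14 genes driven by the sterol receptor LXR or acting in cholesterol efflux (median 0.06). Of all tested genes 0.442% were called. Apoe is the knocked-out gene and Apoc1 and Apoc2 are its neighbours, so the count describes that cluster and not the rest of the list. Scd2, a fatty acid desaturase, read 7.25, 7.48 and 7.09 against 6.52, 6.46 and 6.49 (0.79 ± 0.16, adjusted p = 0.0681), and passed without sample 4 (adjusted p = 0.0397); Cyp27a1, which makes an oxysterol, read 10.33, 10.35 and 10.46 against 10.86, 10.64 and 10.98 (-0.45 ± 0.12, adjusted p = 0.177). None of 14 cholesterol synthesis genes (median -0.12), 10 of fatty acid synthesis (0.03), 10 lipoprotein receptors and lipases (-0.03) or 12 genes of lipid uptake and storage (-0.04) passed. Groups were apart downward in 5 cholesterol synthesis genes and 4 of lipid uptake and storage, against 8.86% of all genes. Upward they were apart in 0 and 1, against 9.32%. On the high-cholesterol diet the medians of these 2 lists were 0.29 and -0.31. Sqle, squalene epoxidase, read 9.01, 9.02 and 8.76 against 9.61, 9.58 and 9.49 without overlap (-0.63 ± 0.16, adjusted p = 0.15), and passed without sample 4 (-0.63, adjusted p = 0.0427). Dgat2, which makes triglycerides, gave -0.59 ± 0.16 and Cd68, a lysosomal protein of macrophages, -0.47 ± 0.15; neither passed.

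The lists of interferon-stimulated, Toll-like receptor and proliferation genes held no call. None of 22 interferon-stimulated genes passed (median 0.10), with values from -0.94 for Mx1, an antiviral GTPase, to 0.50 for Oasl2. None of 16 genes of Toll-like receptors and their adaptors passed (median -0.09), and Tlr8 read lowest at -0.68. In 6 of these 16 genes the groups were apart downward, against 8.86% of all genes, and in none upward. Of 20 proliferation genes, which encode replication and mitosis proteins, 18 lay above 0 without passing, up to 0.48 for the replication licensing factor Mcm3. The median was 0.32, or 0.18 without sample 8 and 0.47 without sample 7. In 4 of the 20 the groups were apart upward, against 9.32% of all genes. The list's mean was 9.059, 9.055 and 9.241 on the ApoE-/- arrays and 9.166, 8.623 and 8.788 on the Bl6 arrays. Sample 7 was thus level with the ApoE-/- arrays. Across all 40 lists, 29 held no call over their 344 tested members, and their medians ran from -0.41 to 0.54, the B cell and T cell lists.

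The genotype difference was also read on the high-cholesterol diet, whose 6 arrays do not enter the chow difference but helped set its spread. The 90 probes were chosen with that shared spread, so the counts below are not an independent check. Of the 90 probes, 78 had the same sign there, 61 had groups apart in that direction, where 20.5% of all tested probes had groups apart in either direction, and 39 were called the same way, against 0.96% of all tested probes called on that diet in either direction. Near Apoe, 28 of 30 probes kept their sign and 26 their call, with a median of 1.31 in the chow direction on that diet and 1.32 on chow. All 6 sex-linked probes were called on both diets. Of the 54 probes elsewhere, 44 kept their sign and 7 their call (Lrg1, S100a9, Ccl4, Cbln1, Pisd-ps1, Lrig3 and Aloxe3), with a median of 0.29 against 0.92 on chow. Il10 read 0.10 ± 0.22, Sostdc1 -0.17 ± 0.20 and Gzmk 1.02 ± 0.25 there. By limma, no probe's difference between the diets passed (0 of 23031, 0% called; 1845 at an unadjusted p under 0.05, smallest adjusted p 0.0775), so no genotype effect was shown to depend on diet.

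**Figure D5:**
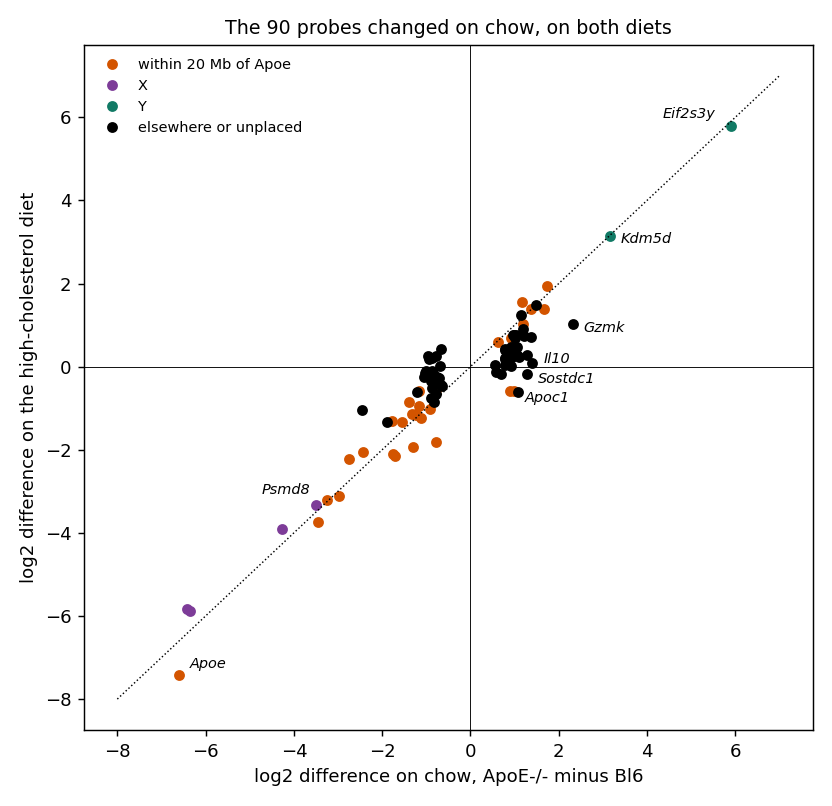
The 90 probes called on chow, with the log2 difference, ApoE-/- minus Bl6, on chow (x axis) and on the high-cholesterol diet (y axis); colours give the place in the genome and the dotted line equal values. Probes within 20 Mb of Apoe and sex-linked probes lie near the line in most cases, the 2 Apoc1 probes excepted, and most others lie nearer to 0 on the y axis.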

How the data were processed

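RNA of CD11c+ spleen cells was measured on Illumina MouseWG-6 arrays, 1 per sample, from 100 ng of total RNA, per the labels' protocols. The deposited intensity table gives, per the file headers, a linear intensity and a detection p-value per probe and array. The deposited log2 table holds log2 of the same intensity plus a constant per array, with the ApoE-/- diets exchanged. Here limma 3.58.1 in R 4.3.3 corrected background (nec, offset 16), quantile-normalised, and fitted 4 group means to 12 arrays (8 residual degrees of freedom, prior 3.22); p-values were two-sided, Benjamini-Hochberg adjusted over 23031 probes. The steps were tested on simulated data. The GRCm38.p6 gene table named 28620 probes through their gene number, 2637 through a transcript, 2128 through the symbol and 2343 through an older one; 10453 carried no such entry. Lists used the brightest probe of a gene. Named were Apoe, sex-linked genes, the 15 largest rises and falls, up to 3 passing and, for chosen lists, 2 other members, and neighbours of Apoe; a few others, such as second probes, were added after their values were seen. Members and lists were chosen with earlier results of these data known. Alternatives covered arrays in the fit, exchanged diets, background, scaling, the log2 table, detection filters, eBayes trend and each array left out.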

Additional observations from a re-analysis of the deposited data

Results flagged for a closer look

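Some results had opposite signs on the 2 diets, with every array of ApoE-/- on one side of every Bl6 array on each diet. Chow minus high-cholesterol values of the genotype difference were 1.48 and 1.57 for the Apoc1 probes, -1.65 for Sqle, -0.925 for Cyp51 (lanosterol demethylase), 0.881 for Itgae, 0.718 for Hnrnpll, -1.03 for Col20a1, -1.23 for Serpinh1 (a collagen chaperone), -1.11 for a clone probe matched to Pcf11 by an older symbol, and 1.68 for an unnamed probe. The test of the difference between diets did not pass for any of them, and its smallest adjusted p was 0.0775. Some of the calls on chow were lost with the ApoE-/- diets exchanged. Under that exchange Col20a1 gave -0.09 (adjusted p = 0.852) and Serpinh1 -0.75 (adjusted p = 0.124). The Pcf11 probe gave -0.36 (adjusted p = 0.289) and the unnamed probe 0.58 (adjusted p = 0.299).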

How the results depend on the processing

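The count of changed probes (90, with 41 higher and 49 lower) was the result most open to the processing. It was 31, with 7 higher and 24 lower, when only the 6 chow arrays entered the fit. It was 225 (102 and 123) without background correction, 199 (93 and 106) with an intensity trend in eBayes, 244 with 183 higher in the deposited log2 table under its own names, and 218 (128 and 90) there once renamed by values. Higher probes numbered 26 with the ApoE-/- diets exchanged, 27 without the detection filter and 25 with detection on 3 or more of 12 arrays. Median scaling gave 47 higher and 34 lower. Leaving out 1 array gave 23 to 133 changed probes, 5 to 80 higher and 14 to 60 lower, and 81.91% to 100% with the same sign on the high-cholesterol diet. The cause of these shifts was not tested. With only the 6 chow arrays in the fit, 17 of the 35 called named genes did not pass (adjusted p 0.0555 to 0.1545). They were Apoc1, Cd177, Cyp7b1, Fbxo46, Gss, Ifitm1, Il10, Il1r2, Klk1, Lrg1, Nfkbib, Ppp1r14a, S100a9, Sdcbp2, Sostdc1, Sp4 and Zfp235. Of 35 called named genes, 17 passed under all 23 alternatives that gave a value. Some named genes that were not called passed under part of these alternatives. Camp passed under 10, Cox6a2 under 8, S100a8 under 6, and Scd2, Thy1 and the brightest Cd6 probe under 5. Hp and Sqle passed under 4 and Vsig4 under 3. C1qa, Cd83, Cyp27a1 and Tbx21 passed under 2, and Bcl3, Csf2rb and Gzmm under 1. All 90 called probes were followed only with the diets exchanged and with each array left out. There 1 turned its sign, that of Aak1 with the diets exchanged (-0.01). Among the genes followed under every setting, signs turned only in some that had not passed: with the diets exchanged Tomm40 gave 0.0528 and Bcam 0.0637; in the log2 table under its own names Cd24a gave 0.00283, H2-Ob 0.0605, Tomm40 0.105 and Bcam 0.133. Relb (-0.0721 to 0.124) and Clptm1 (-0.0882 to 0.151) crossed 0 when 1 array was left out, below 0 without sample 3 or 9. List medians near 0 have no settled sign: that of interferon-stimulated genes was -0.02 without sample 9, and without sample 7 those of Toll-like receptors, lipoprotein receptors and type 1 dendritic cells were 0.01, 0.02 and 0.05. No paired analysis was possible because the groups share no replicate numbers. With 3 arrays a group, the number of arrays limits the precision.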
